A study of Mus musculus with 27 samples.

Results

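Expression of the 7 globin genes Hbb-y, Hbb-bh1, Hbb-bs, Hbb-bt, Hba-x, Hba-a1 and Hba-a2 was followed through fetal brain development in 3 mouse strains. The genes were taken by their symbols from the deposited read count table, in which they are 7 of 55416 genes. The study sequenced the whole fetal brain of the inbred strains AKR/J and C57BL/6J and of B6.Cg-Cav1tm1Mls/J mice, here Cav1-null, a congenic strain on the C57BL/6J background that carries a targeted allele of the caveolin gene Cav1. Fetuses were collected on gestational d12, d15 and d17, counted with the day of the vaginal plug as day 1, and all of them are labelled female. Strain and day made 9 groups with 3 poly(A) RNA libraries in each, and no group had a treatment. The labels do not say whether the 3 fetuses of a group came from separate litters, so that p-values measure only the spread between these 3 libraries.

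Globins are the protein chains of hemoglobin, which joins alpha-like and beta-like chains to carry oxygen in red blood cells. In the mouse, primitive red cells that arise in the yolk sac make the embryonic chains, encoded by Hba-x (the zeta-like alpha chain), Hbb-y (the epsilon-like chain) and Hbb-bh1 (the beta h1 chain), whereas definitive red cells, first made in the fetal liver, make the adult chains, encoded by Hba-a1, Hba-a2, Hbb-bs and Hbb-bt. This change of chains during gestation is the embryonic to adult globin switch, and the blood inside a dissected brain brings its red cells into the sample. In such bulk samples, fewer red cells and less globin RNA per cell cannot be told apart.

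The beta-like genes lie together on chromosome 7 and the alpha-like genes on chromosome 11, each with 3 exons in its canonical transcript (GRCm39, GENCODE M39). On the minus strand, the order in the direction of transcription was Hbb-y (ENSMUSG00000052187, chr7:103500956-103502423), Hbb-bh1 (ENSMUSG00000052217, chr7:103490844-103492371), Hbb-bs (ENSMUSG00000052305, chr7:103475739-103477169) and Hbb-bt (ENSMUSG00000073940, chr7:103461730-103463203). On the plus strand of chromosome 11 the order was Hba-x (ENSMUSG00000055609, chr11:32226400-32228116), Hba-a1 (ENSMUSG00000069919, chr11:32233511-32234504) and Hba-a2 (ENSMUSG00000069917, chr11:32246396-32247298). In both clusters the embryonic genes therefore come first and the adult genes last. The 120 bases before the start of 6 of the 7 genes, all but Hbb-bh1, were read from RefSeq (GRCm38.p6) and are shown because the embryonic genes changed together in these data. Capitals mark matches on either strand to CACCC, to the box spelled CCAAT, which reads ATTGG on the opposite strand, and to TATAA or the form ATAAA that can overlap with it:
Hbb-y promoter, chr7:103853208-103853327, strand -: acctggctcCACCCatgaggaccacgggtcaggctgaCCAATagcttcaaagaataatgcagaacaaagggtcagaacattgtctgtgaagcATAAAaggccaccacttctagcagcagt
Hba-x promoter, chr11:32276480-32276599, strand +: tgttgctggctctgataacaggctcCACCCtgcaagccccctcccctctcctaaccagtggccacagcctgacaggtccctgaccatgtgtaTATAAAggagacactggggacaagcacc
Hbb-bs promoter, chr7:103827929-103828048, strand -: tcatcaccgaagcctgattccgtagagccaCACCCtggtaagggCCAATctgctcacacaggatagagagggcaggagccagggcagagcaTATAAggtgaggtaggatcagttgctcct
Hbb-bt promoter, chr7:103813924-103814043, strand -: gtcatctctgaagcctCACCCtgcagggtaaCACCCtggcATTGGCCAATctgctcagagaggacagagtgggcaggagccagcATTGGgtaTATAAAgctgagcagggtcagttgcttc
Hba-a1 promoter, chr11:32283552-32283671, strand +: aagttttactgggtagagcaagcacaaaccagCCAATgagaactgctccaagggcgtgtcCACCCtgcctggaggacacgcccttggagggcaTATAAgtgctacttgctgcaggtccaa
Hba-a2 promoter, chr11:32296372-32296491, strand +: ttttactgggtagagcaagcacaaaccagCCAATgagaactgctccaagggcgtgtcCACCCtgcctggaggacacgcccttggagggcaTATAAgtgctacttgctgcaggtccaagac
CACCC, the core of the box bound by the erythroid factor Klf1, was found in all 6 windows and in 31.7% of the 32851 RefSeq promoters over the same length and on both strands. CCAAT was found in 5 of the 6, all but Hba-x, against 21.3% of promoters, and TATAA in 5 of the 6, all but Hbb-y, against 11.8%. Hbb-y instead held ATAAA, as did Hbb-bt and Hba-x, against 20.2% of promoters. GATAA, the core of the site of Gata factors, was found in Hba-x alone among the 6, against 10.5% of promoters. These letters describe the windows only, and no binding was measured.

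Both pairs of adult genes are near-identical copies, which limits how their reads can be told apart. The coding sequences of Hba-a1 and Hba-a2 (429 bases each) differ at 1 base, C381T, and those of Hbb-bs and Hbb-bt (444 bases each) at 1 base, C417T, with the first gene's base first and positions counted from 1 at the start codon. The 31 bases around each difference, which is in capitals, are shown because these are the only coding bases that separate the copies in the reference genome:
Hba-a1 exon 3, chr11:32234328-32234358, strand +: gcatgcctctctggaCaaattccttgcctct
Hba-a2 exon 3, chr11:32247145-32247175, strand +: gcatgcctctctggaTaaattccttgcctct
Hbb-bs exon 3, chr7:103475884-103475914, strand -: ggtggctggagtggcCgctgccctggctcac
Hbb-bt exon 3, chr7:103461875-103461905, strand -: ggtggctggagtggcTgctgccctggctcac
Over the aligned mRNA, Hba-a1 and Hba-a2 were 99.8% identical (1 mismatch in 647 bases) and Hbb-bs and Hbb-bt were 92.3% identical (46 mismatches in 650 aligned bases). By contrast, the embryonic Hbb-y shares 74.3% of its coding bases with Hbb-bs, and Hba-x shares 64.1% with Hba-a1. The longest identical stretch was 508 bases for the alpha copies and 430 for the beta copies. The split between the copies of a pair is therefore uncertain, and the ratios below use the sum of the 2 copies. The sum does not restore reads that map to both copies if these were left out of the counts. Their handling is not given in the sources used here, so the ratios and shares below carry this limit, and its size was not tested.

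The number of reads on genes was 26363697 in the smallest library, 29700746 in the median one and 39759702 in the largest, and levels are given in CPM, the usual scale on which every library has the same total. Cav1 had 0 to 16 reads in the 9 Cav1-null libraries and 182 to 1288 in the libraries of the other strains, as the labels say. All 12 markers of neurons and neural progenitors were detected in each group, with a summed level of 3829 to 7482 CPM that was lowest in the AKR/J d12 libraries (3829 to 4454 CPM). Among the d12 libraries of C57BL/6J, replicate 3 stood apart from the other two in its globins, so the main C57BL/6J results on d12 are given with and without it. Markers of trophoblast and of yolk sac and fetal liver endoderm were high in some of the AKR/J d12 libraries, and their values are given with the AKR/J results on d12. Genes were called at an adjusted p under 0.05, where every adjusted p below comes from the quasi-likelihood test of edgeR after Benjamini-Hochberg adjustment.

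The beta-globin switch was seen in all 3 strains between d12 and d17. The ratio of embryonic (Hbb-y plus Hbb-bh1) to adult (Hbb-bs plus Hbb-bt) beta reads was high on d12, lower on d15 and lowest on d17, with no overlap between the days of any strain. In AKR/J, the log2 ratio was 4.97, 4.88 and 4.96 on d12, -0.14, -0.56 and 0.93 on d15 and -7.56, -8.31 and -8.36 on d17. After division of the reads by mRNA length, embryonic chains made up 96.9% to 97.1% of the beta total of AKR/J on d12, 41.8% to 66.9% on d15 and 0.321% to 0.558% on d17. In C57BL/6J, the log2 ratio was 1.87, 1.20 and 4.36 on d12, -2.61, -2.17 and -2.77 on d15 and -12.23, -12.95 and -13.13 on d17. Replicate 3 of the d12 libraries was far above its group, and the mean of the group was 2.48 with it and 1.53 without it. In Cav1-null mice, the log2 ratio was 2.004, 2.28 and 2.62 on d12, -5.95, -5.78 and -5.94 on d15 and -11.16, -10.40 and -11.23 on d17.

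On the log2 scale, the strains differed in when most of this change took place. Between d12 and d15 the mean log2 beta ratio changed by -4.86 (SE 0.44) in AKR/J, -4.99 (SE 0.98) in C57BL/6J and -8.19 (SE 0.19) in Cav1-null mice. Between d15 and d17 it changed by -8.15 (SE 0.51) in AKR/J, -10.25 (SE 0.33) in C57BL/6J and -5.04 (SE 0.27) in Cav1-null mice. On this scale the larger part of the change fell in the late phase in AKR/J and C57BL/6J and in the early phase in Cav1-null mice. As a share per length, in percentage points, the embryonic part of the beta total changed by -44.5 (SE 7.44) and then -52.2 (SE 7.44) in AKR/J, by -66.3 (SE 7.45) and then -15.8 (SE 1.72) in C57BL/6J, and by -82.2 (SE 1.64) and then -1.71 (SE 0.0682) in Cav1-null mice. By this share, C57BL/6J had the larger change in the early phase, like Cav1-null mice. Without C57BL/6J d12 replicate 3, the early change of C57BL/6J was -4.05 (SE 0.38) on the log2 scale and -59.4 (SE 4.64) percentage points. On d15, all 3 strains were apart from each other, with Cav1-null mice lowest, C57BL/6J in between and AKR/J highest. The Cav1-null libraries were -3.38 (SE 0.19) log2 units from C57BL/6J on that day, and the AKR/J libraries were 2.59 (SE 0.48) above C57BL/6J. On d17 the order was different, with C57BL/6J lowest, Cav1-null mice 1.84 (SE 0.38) above it and AKR/J 4.69 (SE 0.38) above it, again without overlap. The d17 order of C57BL/6J and Cav1-null mice rests on 6 to 8 and 8 to 23 Hbb-y reads a library. On d12, AKR/J was above the other strains and the Cav1-null and C57BL/6J libraries overlapped, although without C57BL/6J replicate 3 the Cav1-null libraries were all higher, by 0.77 (SE 0.38). The ratios are given as a description with no test, and the smallest p of an exact permutation test of 3 against 3 libraries is 0.1.

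**Figure D1:**
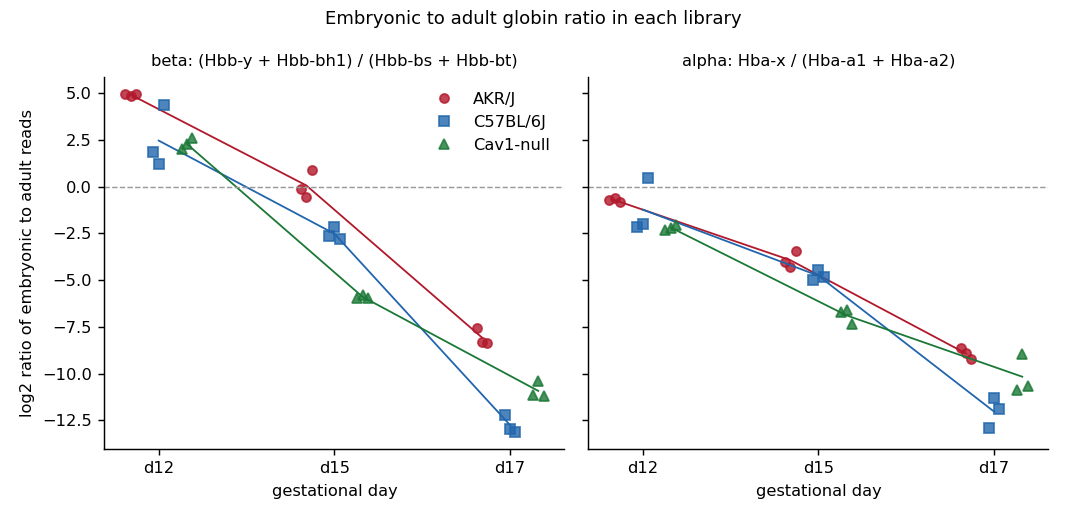
Log2 ratio of embryonic to adult globin reads in each of the 27 libraries by gestational day, for the beta-like genes (left) and the alpha-like genes (right), with 1 point per library, lines through the group means and a dashed line where both are equal. Every strain goes from high to low ratios, with Cav1-null mice lowest on d15 (beta, -5.95, -5.78 and -5.94) and C57BL/6J lowest on d17, and C57BL/6J d12 replicate 3 lies above its group in both panels.

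The alpha-globin switch ran in the same direction but from a lower start. The log2 ratio of Hba-x to Hba-a1 plus Hba-a2 was -0.68, -0.60 and -0.84 in AKR/J on d12, -4.04, -4.31 and -3.43 on d15 and -8.65, -8.92 and -9.22 on d17. In C57BL/6J it was -2.13, -1.999 and 0.47 on d12, -4.98, -4.46 and -4.85 on d15 and -12.94, -11.29 and -11.90 on d17. In Cav1-null mice it was -2.30, -2.19 and -2.05 on d12, -6.71, -6.60 and -7.35 on d15 and -10.90, -8.96 and -10.65 on d17. The days did not overlap in any strain, and adult alpha reads outnumbered embryonic ones already on d12 in every library but C57BL/6J d12 replicate 3. Without that library the C57BL/6J d12 mean was -2.06 in place of -1.22. Per length, embryonic chains were 83.9 ± 2.84% of the beta total but 16.2 ± 1.17% of the alpha total of Cav1-null mice on d12 (SD, n = 3). The unknown handling of reads shared by the adult copies bears on both shares. As for beta, the d15 alpha ratio was lowest in Cav1-null mice, at -2.12 (SE 0.28) log2 units from C57BL/6J, without overlap. On d17 the alpha ratios of AKR/J and Cav1-null mice overlapped, and both were above C57BL/6J, where 4 to 12 reads a library were on Hba-x. Hba-x itself differed by 0.57 between Cav1-null and C57BL/6J mice on d17 and was not called (adjusted p = 0.638).

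Of the 7 globins, the embryonic Hbb-y had the highest level per length in each of the 9 d12 libraries. In AKR/J, Hbb-y was 57148, 27931 and 113531 CPM on d12, 782, 1018 and 1629 on d15 and 38.5, 8.19 and 46.5 on d17. In C57BL/6J it was 1123, 829.7 and 3082 CPM on d12, 79.6, 78.6 and 60.1 on d15 and 0.259, 0.202 and 0.200 on d17. Cav1-null mice had 3481, 3124 and 3072 CPM on d12, 35.2, 49.1 and 42.8 on d15 and 0.800, 0.296 and 0.413 on d17. By mean level, the groups followed the order AKR/J d12, Cav1-null d12, C57BL/6J d12, AKR/J d15, C57BL/6J d15, Cav1-null d15, AKR/J d17, Cav1-null d17 and C57BL/6J d17. Neighbours in this order overlapped only for C57BL/6J d12 with the group on either side of it and for Cav1-null d15 with AKR/J d17. Without replicate 3, the C57BL/6J d12 libraries were below all those of Cav1-null mice on d12 and overlapped with AKR/J d15. AKR/J on d17 overlapped in Hbb-y with Cav1-null mice on d15, whereas the d17 libraries of C57BL/6J had 6 to 8 Hbb-y reads each.

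Hbb-bh1, the other embryonic beta chain, was below Hbb-y per length in every library. It was 5526, 1648 and 7896 CPM on d12, 4.21, 6.01 and 7.49 on d15 and 1.18, 0.493 and 1.39 on d17 in AKR/J. In C57BL/6J on d12 it was 8.09, 4.17 and 328 CPM, so that replicate 3 held 10026 of its reads against 257 and 146 in the others. In Cav1-null mice it was 39.5, 45.9 and 46.9 CPM on d12 and 0.596, 1.10 and 0.790 on d15. The C57BL/6J d15 libraries, at 0.377, 0.741 and 0.995 CPM, overlapped with those of Cav1-null mice. On d17 both strains were near the limit of detection, with 2 Hbb-bh1 reads over the 3 libraries of each. Per length, Hbb-bh1 was 5.74% to 9.08% of the embryonic beta reads in AKR/J on d12, 0.516% and 0.739% in replicates 2 and 1 of C57BL/6J and 1.16% to 1.55% in Cav1-null mice. Replicate 3 of C57BL/6J, at 9.91%, was above all AKR/J libraries by this measure.

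Hba-x, the embryonic alpha chain, followed Hbb-y from group to group. It was 1539, 1854 and 3675 CPM on d12, 27.4, 35.97 and 56.03 on d15 and 6.30, 1.67 and 5.58 on d17 in AKR/J. In C57BL/6J it was 87.8, 110.2 and 652 CPM on d12, 12.2, 12.4 and 11.3 on d15 and 0.129, 0.404 and 0.267 on d17. Hba-x of Cav1-null mice was 183, 172 and 171 CPM on d12, 7.56, 9.93 and 5.82 on d15 and 0.417, 0.406 and 0.379 on d17. The order of the groups was that of Hbb-y, except that C57BL/6J d12 stood above Cav1-null d12 through its replicate 3. Neighbours in the order overlapped for these 2 groups, for Cav1-null d15 with AKR/J d17, and for the d17 groups of Cav1-null and C57BL/6J mice. Over the 27 libraries, Pearson's r between log2(CPM + 1) of Hba-x and Hbb-y was 0.979, and that of Hbb-bh1 and Hbb-y was 0.880. Hba-x lies on another chromosome than Hbb-y, but all 3 genes share the libraries and their depth, so r is given as a description without a test.

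**Figure D2:**
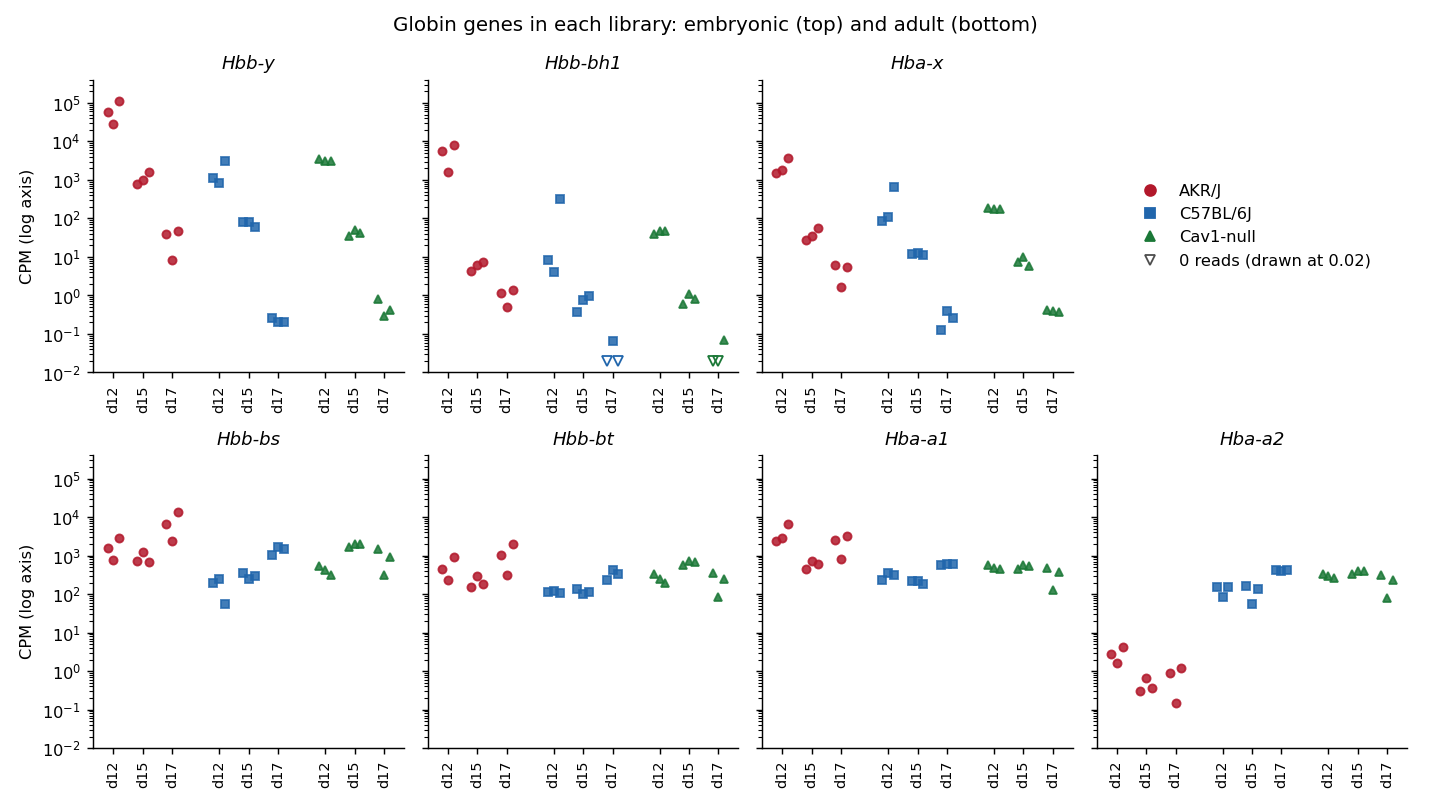
Level (CPM, log axis) of each globin gene in each library by strain and gestational day, with embryonic genes in the top row, adult genes in the bottom row and open triangles for libraries with 0 reads. The embryonic genes go from up to 113531 CPM for Hbb-y on d12 to at most 0.800 CPM for Hbb-y on d17 in C57BL/6J and Cav1-null mice, whereas Hba-a2 is 0.152 to 4.20 CPM in all AKR/J libraries and 56.5 CPM or more in the other strains.

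The adult beta chains moved less than the embryonic Hbb-y in each phase, and differently in each strain. Hbb-bs, the more abundant of the 2 in all libraries but C57BL/6J d12 replicate 3, was 1544, 776 and 2954 CPM on d12, 711, 1208 and 681 on d15 and 6467, 2436 and 13776 on d17 in AKR/J. In C57BL/6J it was 196, 246 and 55.5 CPM on d12, 354, 254 and 303 on d15 and 1008, 1709 and 1451 on d17. Hbb-bs of Cav1-null mice was 554, 412 and 315 CPM on d12, 1636, 2054 and 1983 on d15 and 1487, 317 and 912 on d17. The highest level was thus reached on d17 in AKR/J and C57BL/6J but on d15 in Cav1-null mice. AKR/J d17 stood above all other groups by mean level and did not overlap with the next, Cav1-null d15. It did overlap with AKR/J d12, whose replicate 3 (2954 CPM) was above AKR/J d17 replicate 2 (2436 CPM). C57BL/6J d12 was the lowest group and did not overlap with C57BL/6J d15 above it. Between these ends, AKR/J d15 did not overlap with Cav1-null d12 below it, and the other neighbours overlapped. Hbb-bt, the second copy, was highest in the same group, at 1011, 322 and 1950.5 CPM in AKR/J on d17, and lowest in C57BL/6J on d12, at 114, 118 and 110.1 CPM. The Cav1-null libraries held 324, 241 and 193 CPM of Hbb-bt on d12, 583, 706 and 697 on d15 and 346, 84.05 and 244 on d17. Among neighbours in the order of Hbb-bt means, AKR/J d15 and C57BL/6J d15 were the only ones that did not overlap.

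The main adult alpha chain, Hba-a1, was 2465, 2813 and 6576 CPM on d12, 449.9, 715 and 604 on d15 and 2530.1, 808 and 3324 on d17 in AKR/J. In C57BL/6J it was 235, 355 and 315 CPM on d12, 221, 216 and 188 on d15 and 588, 605 and 607 on d17. The Cav1-null libraries had 558, 491 and 454 CPM on d12, 453, 556 and 550.2 on d15 and 484, 125 and 372 on d17. AKR/J d12 and d17 were the highest groups and overlapped with each other, while no d15 library of AKR/J reached them. Replicate 2 of the Cav1-null d17 libraries was the lowest of its group in all 4 adult genes, with 317 CPM of Hbb-bs.

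In the early phase, from d12 to d15, all 3 embryonic genes fell in each strain. In AKR/J, 6 of the 7 globin genes were called and all 6 fell, against 28.9% of all genes tested that were called. Hbb-bh1 fell most (log2 fold change -10.36, SE 0.95, adjusted p = 0.000883), followed by Hbb-y (log2 fold change -6.46, SE 0.94, adjusted p = 0.00295) and Hba-x (log2 fold change -6.43, SE 0.60, adjusted p = 0.000910). The adult genes Hba-a1 (-3.31, adjusted p = 0.00441), Hba-a2 (-3.29, adjusted p = 0.00620) and Hbb-bt (-1.98, adjusted p = 0.0378) fell in AKR/J too, and Hbb-bs missed the threshold at -1.64 (adjusted p = 0.0661). Hba-a2 had only 47 to 120 reads a library on d12 and 9 to 19 on d15 in AKR/J. Its reads may not be separable from those of its near-identical copy Hba-a1, so its call may not be a separate one. In the same comparison, 6 of 7 trophoblast and decidua markers and 6 of 9 endoderm markers tested fell, with medians of -8.09 and -6.85 against 0.02 over all genes, and their part in the globin values was not tested. In C57BL/6J, 3 of the 7 were called, against 14.9% of all genes, and these were the embryonic genes Hbb-bh1 (log2 fold change -7.24, SE 1.89, adjusted p = 0.0451), Hba-x (log2 fold change -4.49, SE 0.80, adjusted p = 0.0222) and Hbb-y (log2 fold change -4.46, SE 0.51, adjusted p = 0.0159). Without d12 replicate 3 they were still called, at -3.08, -3.02 and -3.72, but without any 1 of the 3 d15 libraries none of the 7 genes was called (against at most 0.0303% of all genes), and without d12 replicate 1 Hbb-bh1 was not (adjusted p = 0.0656). The 4 adult genes of C57BL/6J lay between -0.49 for Hba-a1 and 0.90 for Hbb-bs and did not pass. In Cav1-null mice, 5 of the 7 were called, against 23.4% of all genes, and here the adult beta genes rose. Hbb-bs rose by 2.12 on the log2 scale (SE 0.21, adjusted p = 0.000478) and Hbb-bt by 1.36 (SE 0.19, adjusted p = 0.00174, but 0.103 in a model of all 27 libraries), while the log2 fold change was 0.03 for Hba-a1 and 0.33 for Hba-a2, which did not pass. Hbb-y (log2 fold change -6.27, SE 0.17, adjusted p = 1.32e-06), Hbb-bh1 (-5.74) and Hba-x (-4.52) fell in these mice. Of the 8 endoderm markers tested in them, 3 rose, against 11.6% of all genes, with a median of 1.18, and their part was not tested either.

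In the AKR/J d12 libraries, globins took 3.53% to 13.6% of all reads. Scaling by library size in place of TMM shifted the median of all log2 fold changes in AKR/J from 0.02 to 0.46, and the call of Hbb-bt was then lost (adjusted p = 0.0834), while the other 5 AKR/J globin calls kept their direction and their call. Hbb-bt was also lost without any 1 of the 6 libraries other than d12 replicate 2. In the other comparisons this change of scaling moved the median of all genes by 0.1 or more only for C57BL/6J from d15 to d17 (0.03 to 0.17), for AKR/J against C57BL/6J on d12 (0.02 to -0.38) and d15 (0.06 to 0.23), for Cav1-null mice against C57BL/6J on d15 (0.03 to 0.21) and for 3 of the 4 differences of change between strains.

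In the late phase, from d15 to d17, the embryonic genes fell again in each strain, whereas adult genes rose in AKR/J and C57BL/6J and the adult beta genes fell in Cav1-null mice. In AKR/J, 6 of the 7 were called, against 22.1% of all genes. Hbb-y (log2 fold change -5.16, SE 0.61, adjusted p = 0.00142), Hba-x (-3.09, adjusted p = 0.00276) and Hbb-bh1 (-2.48, adjusted p = 0.00422) fell. Hbb-bs (log2 fold change 3.18, SE 0.57, adjusted p = 0.00652), Hbb-bt (2.41, adjusted p = 0.0188) and Hba-a1 (1.96, adjusted p = 0.0164) rose. In the same comparison 4 of 10 endothelial markers fell and 3 of 7 endoderm markers rose, against 10.4% and 11.6% of all genes, with medians of -0.72 and 0.60, and their part in the globin values was not tested. Hbb-bt and Hba-a1 were not called without AKR/J d15 replicate 1 or without d17 replicate 3. In C57BL/6J, all 7 were called, against 13.0% of all genes, with all 4 adult genes higher and all 3 embryonic genes lower. Hbb-bs (log2 fold change 2.04, SE 0.21, adjusted p = 0.00477) and Hba-a2 (1.67, adjusted p = 0.0265) rose most there, Hba-a1 and Hbb-bt by 1.39 and 1.35, and Hbb-y fell by 8.47 (SE 0.23, adjusted p = 1.57e-05). Without C57BL/6J d17 replicate 3, 4 of these 7 were called, against 0.767% of all genes, and Hbb-bh1, Hbb-bt and Hba-a2 were not. Hbb-bh1 was also not called without d15 replicate 2 or 3, Hbb-bt without d15 replicate 2, and Hba-a2 without d15 replicate 1 or 3. In Cav1-null mice, 5 of the 7 were called, against 27.3% of all genes, and all 5 fell. Besides Hbb-y (log2 fold change -6.38, SE 0.23, adjusted p = 6.47e-09), Hba-x (-4.27) and Hbb-bh1, these were the adult genes Hbb-bt (log2 fold change -1.55, SE 0.33, adjusted p = 0.00375) and Hbb-bs (log2 fold change -1.05, SE 0.36, adjusted p = 0.0434). Without Cav1-null d17 replicate 2, the library with the fewest globin reads, Hbb-bt was at -1.15 and Hbb-bs at -0.64, and both were still called. Hbb-bs was not called without any 1 of the d15 libraries, without d17 replicate 3, by DESeq2 (adjusted p = 0.146) or in a model of all 27 libraries (adjusted p = 0.385), in which Hbb-bt was not called either (adjusted p = 0.121). That model also lost the late call of Hbb-bh1 in each strain (adjusted p = 0.151 in AKR/J, 0.154 in C57BL/6J, 0.304 in Cav1-null mice) and that of Hbb-bt in C57BL/6J (adjusted p = 0.0934). Since C57BL/6J and Cav1-null mice each had 2 Hbb-bh1 reads on d17, its fall is better read from the reads, with a level on d15 that was 31.6 times that of d17 (95% exact interval 8.46 to 265) in C57BL/6J, and 35.5 times (9.45 to 299) in Cav1-null mice, for counting error alone. The early and late phases share the d15 libraries and are not independent of each other.

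**Figure D3:**
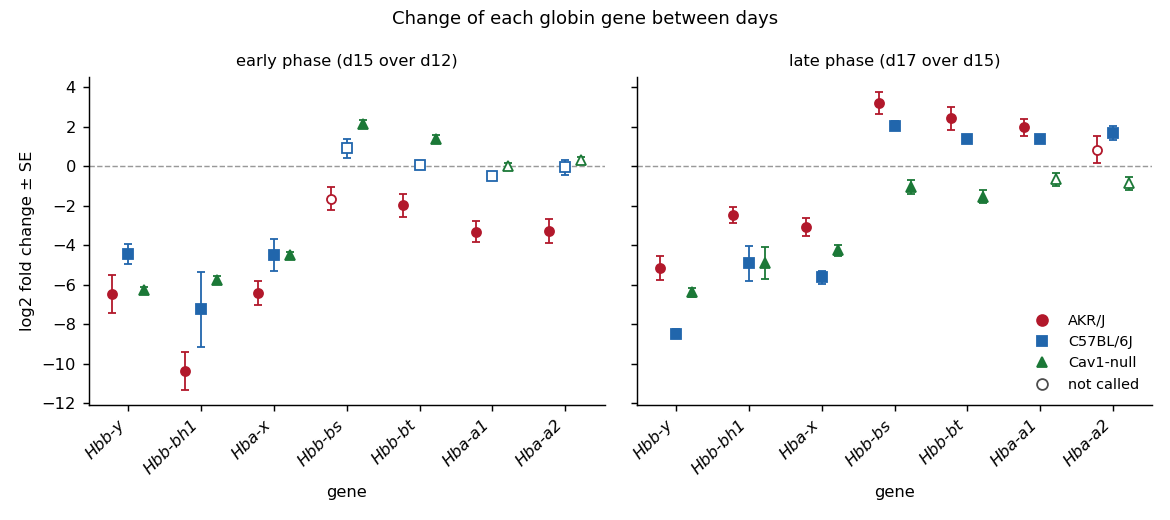
Log2 fold change and its SE for each globin gene in the early phase (d15 over d12, left) and the late phase (d17 over d15, right) in the 3 strains, with filled markers for called genes and open ones for genes that were not called. The 3 embryonic genes lie below 0 in both phases, while Hbb-bs lies at -1.64, 0.90 and 2.12 early on (AKR/J, then C57BL/6J, then Cav1-null mice) and at 3.18, 2.04 and -1.05 in the late phase.

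Between strains on the same day, each called globin gene but Hba-a2 was higher in AKR/J than in C57BL/6J. Hba-a2 had 4 to 120 reads in the AKR/J libraries, which were mapped to the C57BL/6J genome. The part of read assignment between Hba-a1 and Hba-a2 in its calls below was not tested. Summed over both copies, adult alpha reads on d12 were 2468 to 6580 CPM in AKR/J and 384 to 471 in C57BL/6J. On d12, all 7 genes were called, against 28.6% of all genes, with 6 higher in AKR/J. In the same comparison, 6 of 9 endoderm markers and 2 of 8 trophoblast markers tested were higher in AKR/J and 5 of 10 endothelial markers were lower, against 14.5% of all genes higher and 14.1% lower. These markers were 8 of 11, 7 of 8 and 7 of 10 without C57BL/6J d12 replicate 3, against 13.5% of all genes higher and 14.6% lower. Of the 12 macrophage and white blood cell markers, 5 were higher in AKR/J, and the part of these markers in the globin values was not tested. The embryonic Hbb-bh1 (log2 fold change 6.12, SE 1.71, adjusted p = 0.0309) and Hbb-y (log2 fold change 5.90, SE 1.06, adjusted p = 0.0115) differed most of these 6, and Hba-a2 was lower (log2 fold change -4.97, SE 0.49, adjusted p = 0.00544). Without C57BL/6J d12 replicate 3 the difference of Hbb-bh1 was 10.22, that of Hbb-y was 6.60 and that of Hba-x 5.02, and all 7 were still called, but without replicate 2 only 1 (against 0.122% of all genes) and without replicate 1 only 4 (against 8.00%) were. Hbb-bh1 was also lost without AKR/J d12 replicate 1 or 3 (adjusted p = 0.0727 and 0.0793), and Hba-x without AKR/J d12 replicate 3 (adjusted p = 0.0598). On d15, all 7 were called again, against 41.1% of all genes, with Hbb-y at 3.81 (SE 0.29, adjusted p = 0.000207), Hbb-bs at 1.35 and Hba-a2 at -8.24. In a model of all 27 libraries, Hbb-bh1, Hbb-bs and Hbb-bt were not called on d15 (adjusted p = 0.0614, 0.131 and 0.421). Hbb-bt was also lost without C57BL/6J d15 replicate 1, 2 or 3 (adjusted p = 0.0722, 0.133 and 0.130) and with the replicate number as a block (adjusted p = 0.0942). On the same day 9 of the 10 endothelial markers were lower in AKR/J, against 22.3% of all genes, with a median log2 difference of -0.95. On d17, 4 were called, against 0.742% of all genes. These were the embryonic Hbb-y (log2 fold change 7.09, SE 0.75, adjusted p = 0.00525), Hbb-bh1 (5.27, adjusted p = 0.0433) and Hba-x (4.06, adjusted p = 0.0230), all higher in AKR/J, and Hba-a2 (-9.10, adjusted p = 0.000116). Hbb-bs, Hbb-bt and Hba-a1 were at 2.44, 1.72 and 1.87 on d17 and did not pass. The C57BL/6J libraries held 2 Hbb-bh1 reads in all on d17, and Hbb-bh1 was not called in the model of all 27 libraries (adjusted p = 0.179) or without any 1 of the 6 libraries other than C57BL/6J replicate 2. Leaving out single libraries gave 1 to 7 called globin genes on d17, so this count rests on individual libraries of both strains: it was 2 without AKR/J replicate 1 or 3 (against 0.304% and 0.258% of all genes), 7 without C57BL/6J replicate 2 (against 26.4%) and 1 without C57BL/6J replicate 3 (against 0.325%).

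Cav1-null and C57BL/6J mice, which share their strain background, differed in globins on d15. On d12, none of the 7 genes was called in edgeR's quasi-likelihood test, against 0.0% of all genes, although 4 of the 7 had an unadjusted p under 0.05 and DESeq2 called 4 of them. Of all genes tested on that day, 4309 had an unadjusted p under 0.05, and DESeq2 called 2044. Without C57BL/6J d12 replicate 3, 5 of the 7 were called, all higher in Cav1-null mice, against 0.993% of all genes higher and 6.38% lower, and 4 of 10 endothelial markers were lower. Hbb-bh1 then changed from -1.39 to 2.75 (adjusted p = 0.0135) and Hba-x from -0.73 to 0.72 (adjusted p = 0.0471). On d15, 6 of the 7 were called, against 58.6% of all genes. The 4 adult genes were higher in Cav1-null mice, with Hbb-bs at 2.46 (SE 0.12, adjusted p = 8.70e-08), Hbb-bt at 2.33 (SE 0.11, adjusted p = 5.78e-08), Hba-a2 at 1.49 and Hba-a1 at 1.14. The embryonic Hbb-y (log2 fold change -0.96, SE 0.13, adjusted p = 0.000111) and Hba-x (-0.80, adjusted p = 0.00323) were lower, and Hbb-bh1 was at 0.06. In a model of all 27 libraries, Hbb-y, Hba-x and Hba-a1 were not called (adjusted p = 0.152, 0.238 and 0.0607). Of the 10 endothelial markers, 9 were lower in Cav1-null mice on d15, against 31.8% of all genes, with a median log2 difference of -1.53 and a summed level of 89.7 to 113 CPM against 243 to 346 in C57BL/6J, and their part in the globin values was not tested. The lower levels were not particular to this list. Of 12 neuron and neural progenitor markers 8 were lower and 3 higher, and of 19 regulators of globin genes or the switch 13 were lower and 1 higher. In the beta cluster, the log2 differences of the adult genes were thus larger than that of Hbb-y on d15. With most genes called on d15, a called globin gene is not unusual there. On d17, none of the 5 genes tested was called, against 0.0491% of all genes, with 1 at an unadjusted p under 0.05 (1538 of 20358 genes tested) and 0 called by DESeq2 (48 of all genes), and Hbb-y and Hbb-bh1 had too few reads to be tested. The comparisons with AKR/J and with Cav1-null mice share the C57BL/6J libraries.

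An interaction term over 12 libraries tested whether 2 strains differed in their change from one day to the next. Cav1-null mice differed from C57BL/6J in the late phase for 2 of the 7 genes, against 0.252% of all genes, and these were Hbb-bs (difference of log2 fold changes -3.14, SE 0.55, adjusted p = 0.0433) and Hbb-bt (difference of log2 fold changes -2.95, SE 0.52, adjusted p = 0.0433), which rose in C57BL/6J and fell in Cav1-null mice. Hba-a1 and Hba-a2 had differences of -2.09 and -2.57 in the same direction that did not pass (adjusted p = 0.0620 and 0.0654). Leaving out 1 library gave 0 to 5 called globin genes, with 5 without C57BL/6J d17 replicate 1 (against 26.1% of all genes) and 0 without any 1 of the d15 libraries of either strain or without d17 replicate 3 of either strain, and 0 in a model of all 27 libraries. In the early phase, none of the 7 was called in the same comparison, against 0.00472% of all genes, with 2 at an unadjusted p under 0.05 (3181 of 21191 genes tested) and 2 called by DESeq2 (517 of all genes). Without C57BL/6J d12 replicate 2, 1 of the 7 was called there, against 7.30% of all genes, and without replicate 3 Hbb-y alone of the 7 was called, against 0.0180% of all genes, at -2.57 (adjusted p = 0.00162). For AKR/J against C57BL/6J, no difference passed this test in the early phase (0 of 7 called, against 0.0711% of all genes) or in the late phase (0 of 7, against 0.00468%). DESeq2 called 4 and 1 of the 7, against 1019 and 45 of all genes. An unadjusted p under 0.05 was found for 6 and 3 of the 7, against 3432 of 21090 and 1617 of 21373 genes tested. When C57BL/6J d12 replicate 3 was left out, 3 of the 7 were called in the early phase, against 1.74% of all genes, and without AKR/J d12 replicate 2, 5 were, against 14.8%.

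The near-identical adult copies were read at different shares in the strains. Per length, Hba-a2 was 21.6% to 45.9% of the adult alpha reads in C57BL/6J and 39.1% to 46.0% in Cav1-null mice, but 0.0214% to 0.127% in AKR/J. The AKR/J libraries held 2.74, 1.66 and 4.20 CPM of Hba-a2 on d12, 0.303, 0.645 and 0.365 on d15 and 0.900, 0.152 and 1.21 on d17, which are 4 to 120 reads beside 13365 to 188083 of Hba-a1. In C57BL/6J it was 149.5, 85.8 and 156 CPM on d12, 165, 56.5 and 138 on d15 and 429, 405 and 414 on d17, with replicate 2 the lowest on each day. In Cav1-null mice it was 342, 296 and 256 CPM on d12, 338, 408 and 398 on d15 and 311, 78.1 and 238 on d17. None of the AKR/J libraries overlapped with a library of the other strains in this share. All reads were mapped to GRCm39, the genome of C57BL/6J, where the copies differ by the coding base shown above, and the part of strain sequence differences in this split was not tested.

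Hbb-bt, the second adult beta copy, had a smaller share on each later day in all 3 strains. Per length it was 21.8% to 23.2% of adult beta reads in AKR/J on d12, 17.3% to 19.99% on d15 and 11.1% to 12.9% on d17. In Cav1-null mice it was 35.5% to 36.7% on d12, 24.5% to 25.2% on d15 and 18.0% to 20.2% on d17. In C57BL/6J it was 35.4, 31.2 and 65.2% on d12, 26.2% to 27.4% on d15 and 17.9% to 18.9% on d17. The days did not overlap in any strain, and AKR/J was the lowest on each day. AKR/J reads were mapped to the C57BL/6J genome here too, and the part of strain sequence differences in the Hbb-bt share was not tested. In C57BL/6J d12 replicate 3, at 65.2%, Hbb-bt outnumbered Hbb-bs, which it did in no other library. In the splice table, which holds reads that span a junction, 12 of the 15 junctions listed between these genes' bases joined 2 members, either Hba-a1 to Hba-a2 or Hbb-bt to Hbb-bs. These reads were rare, with at most 249 reads over the 27 libraries at a junction of the alpha copies and 69 and 958 at the 2 of the beta copies. Of the 14 annotated introns of the 7 genes, 1 was listed, an intron of Hba-x, so spliced reads could not be used to count the genes.

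**Figure D4:**
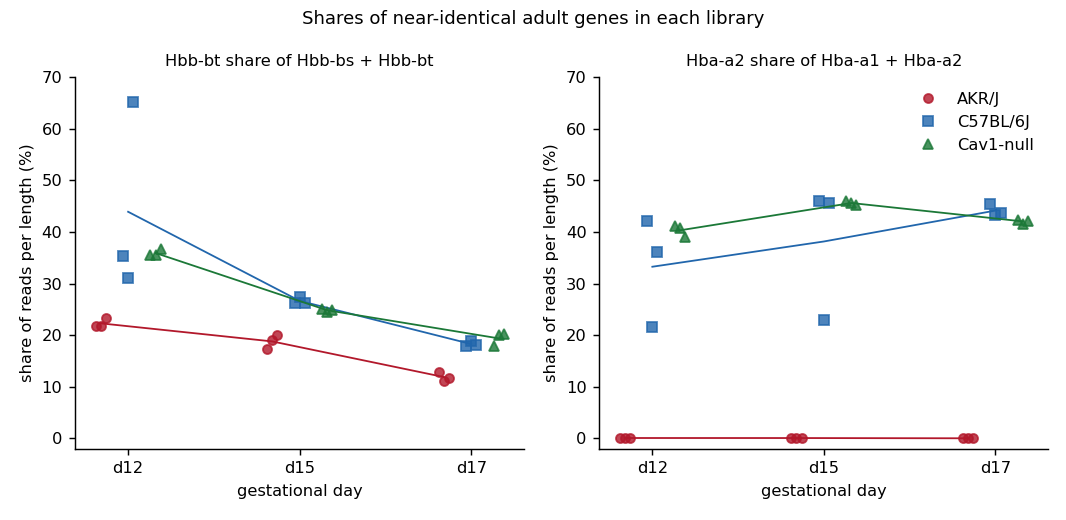
Share (%, reads per length) of Hbb-bt among the adult beta genes (left) and of Hba-a2 among the adult alpha genes (right) in each library by gestational day, with 1 point per library and lines through the group means. The Hbb-bt share goes down with day in each strain, to 11.1% to 12.9% in AKR/J on d17, and the Hba-a2 share is at most 0.127% in AKR/J against 21.6% or more in the other strains.

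The balance of beta-like to alpha-like RNA reads also differed among groups. Per length, the beta-like genes together had 19.4, 7.88 and 14.7 times the reads of the alpha-like genes in AKR/J on d12. In all other groups this ratio was between 1.27 and 5.23. Hba-a1 and Hba-a2 are near-identical and Hbb-y has no such copy among these genes, so reads that map to both copies bear on this ratio. Their handling is not known, and its part in the ratio was not tested. It was 3.41, 2.47 and 3.81 in C57BL/6J and 4.53, 4.47 and 4.63 in Cav1-null mice on d12. Among the adult genes alone, the ratio of AKR/J on d12 was 0.890, 0.392 and 0.650 and overlapped with the other strains. The adult ratio was higher on d15 in each strain, at 2.002 ± 0.392 for AKR/J, 1.34 ± 0.0442 for C57BL/6J and 2.93 ± 0.0316 in Cav1-null mice (SD, n = 3), without overlap with d12.

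In some groups the amount of globin RNA varied between libraries more than the beta ratio did. The globin share of reads spanned a wider fold range than the beta ratio in 4 of the 9 groups, AKR/J on d12 and d17 and Cav1-null mice on d15 and d17, and a narrower one in the other 5. In Cav1-null mice on d15, however, the alpha ratio spanned 1.68-fold and the globin share 1.24-fold, while in the other 3 of these 4 groups the alpha ratio spanned less than the share (1.18-fold to 3.82-fold against 3.85-fold to 5.34-fold). The 7 genes took 3.53% to 13.6% of all reads in AKR/J on d12, at most 0.548% on d12 in the other strains, and 0.0604% to 1.91% on d15 and d17. Within AKR/J d12, the embryonic beta level in CPM spanned 4.11-fold among the 3 libraries, but the beta ratio spanned 1.06-fold. Likewise within AKR/J d17, the adult beta level spanned 5.70-fold and the beta ratio 1.74-fold. In C57BL/6J d12, in contrast, the beta ratio spanned 8.99-fold and the globin share 2.69-fold.

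**Figure D5:**
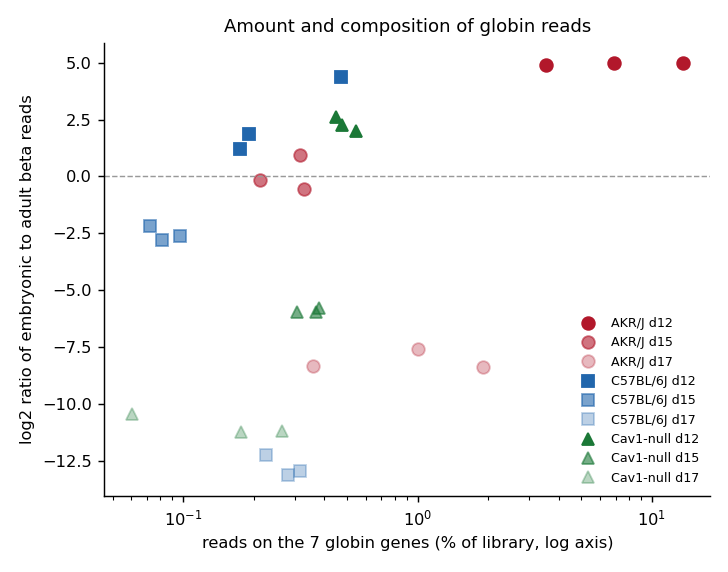
Log2 ratio of embryonic to adult beta reads (vertical axis) against the share of reads on the 7 globin genes (horizontal axis, % of the library, log axis) in each of the 27 libraries, with strains by shape and colour and paler points on later days. The 3 AKR/J d12 libraries spread from 3.53% to 13.6% at log2 ratios of 4.88 to 4.97, and the 3 days separate by the ratio, along the vertical axis, in all strains.

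Markers of tissues outside the brain moved with the AKR/J d12 group. Of the 11 trophoblast and decidua markers and the 14 yolk sac and fetal liver endoderm markers, 6 each fell in the AKR/J early phase, as given above, against 14.0% of all genes that fell. The summed trophoblast level was 25.3 to 546 CPM in AKR/J on d12, 0.314 to 108 in C57BL/6J and 0.143 to 3.82 in Cav1-null mice, and 0.298 to 0.917 in AKR/J on d15. The summed endoderm level, whose markers include Ttr, which choroid plexus also makes, was 33.5 to 1331 CPM in AKR/J, 86.8 to 245 in C57BL/6J and 173 to 700 in Cav1-null mice on d12, and 286 to 378 in AKR/J on d15. Prl8a2, a decidual prolactin, was 398, 76.99 and 16.4 CPM in replicates 1, 2 and 3 of AKR/J d12, and Afp, the alpha-fetoprotein of yolk sac and liver, was 707, 144 and 10.9 CPM. Replicate 3 had the most globin and the least of these 2 markers, which were not compared with the globins by any test. In C57BL/6J d12 replicate 3, the trophoblast marker Tpbpa was at 36.5 CPM against 0.189 and 0.114 in replicates 1 and 2, while Afp was at 0.524 CPM. Of the 14 endoderm markers 1 had 0 reads in all 3 AKR/J d12 libraries, and none of the 11 trophoblast markers did. Of the 12 macrophage and white blood cell markers, 4 fell in the AKR/J early phase and 0 rose, against 14.0% and 14.8% of all genes, at a summed level of 75.1 to 104 CPM on d12 and 62.3 to 94.7 on d15. The summed level of the 10 endothelial markers was 83.7 to 98.8 CPM in AKR/J on d12 and 136 to 180 on d15. The part of these tissues in the globin values was not tested.

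Of 8 other globin genes, 6 were tested in the AKR/J early phase, of which 3 fell and 1 rose, against 14.0% and 14.8% of all genes. Hbb-bh0 and Hbb-bh2 are further beta-like genes of the same cluster, and Hbb-bh0 was 21.1, 10.97 and 43.9 CPM in AKR/J on d12, at most 0.829 on d15 and at most 0.0693 on d17. From d12 to d15 it fell in each strain, in AKR/J (log2 fold change -6.12, SE 0.73, adjusted p = 0.00165), in C57BL/6J (-3.38, SE 0.85, adjusted p = 0.0418) and in the Cav1-null strain (-4.86, SE 0.45, adjusted p = 0.000367). The C57BL/6J value without d12 replicate 3 was -3.40 (adjusted p = 0.0574) and was not called. Hbb-bh2 had 95 reads on d12 in AKR/J and 0 on d15, so that it was at least 30.5-fold lower, taking 3 reads over the group as the floor. Of the theta-like alpha genes, Hbq1b was 15.7, 9.17 and 27.5 CPM in AKR/J on d12 and fell to d15 (-5.40, SE 0.75, adjusted p = 0.00255), whereas Hbq1a had at most 0.741 CPM in any library. Ngb, neuroglobin, which neurons make, rose both early and late in C57BL/6J (1.46, SE 0.37, adjusted p = 0.0419, then 1.34, SE 0.22, adjusted p = 0.0133), both early and late in Cav1-null mice (2.20, SE 0.34, adjusted p = 0.00285, then 0.99, SE 0.22, adjusted p = 0.00501), and in AKR/J from d15 to d17 (1.25, SE 0.37, adjusted p = 0.0425). The early C57BL/6J call of Ngb was lost without d12 replicate 3, at 1.34 (adjusted p = 0.0698). Cygb, cytoglobin, rose from d12 to d15 in AKR/J (2.33, SE 0.28, adjusted p = 0.00162), as it did in Cav1-null mice (1.003, SE 0.18, adjusted p = 0.00472).

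Red cell genes other than globins fell in the AKR/J early phase and were mixed elsewhere. Of 18 red cell membrane and erythroid genes tested there, 14 fell and 2 rose, against 14.0% and 14.8% of all genes, with a median log2 fold change of -4.79 against 0.02 over all genes tested. Slc4a1, the red cell anion exchanger band 3, was 93.1, 210.3 and 212 CPM in AKR/J on d12 and 5.45, 5.50 and 5.64 on d15 (-5.42, SE 0.33, adjusted p = 0.000347). The 3 largest falls were those of Rhag (-6.40, SE 0.54, adjusted p = 0.000726), Kel (-5.75, SE 0.40, adjusted p = 0.000487) and Slc4a1. The 2 that rose, Add2 and Dmtn, encode membrane skeleton proteins that neurons also make. In the C57BL/6J early phase, 2 of 16 fell, Kel (-4.93, SE 1.24, adjusted p = 0.0421) and Epb42 (-3.71, SE 0.77, adjusted p = 0.0294), and 3 rose, Sptb, Ank1 and Dmtn, against 7.80% and 7.08% of all genes, with a median of -1.38 against -0.04. Without d12 replicate 3, 3 of 16 fell and 3 rose, against 7.51% and 8.96% of all genes, with a median of -0.37 against -0.02, Kel at -2.49 (adjusted p = 0.0147) and Epb42 at -2.50 (adjusted p = 0.0114). In the Cav1-null early phase, 8 of 17 fell, led by Epb42 (-3.25, SE 0.40, adjusted p = 0.00107) and Hemgn, and 4 rose, against 11.8% and 11.6% of all genes, with a median of -0.38 against -0.01. From d15 to d17, 5 of 17 rose and 2 fell in AKR/J, against 11.6% and 10.4% of all genes. In the same phase 1 of 15 rose and 1 fell in C57BL/6J, against 7.46% and 5.58%, and 3 of 15 rose and 3 fell in Cav1-null mice, against 14.5% and 12.8%, and the C57BL/6J counts were near those of all genes. The medians of the late phase were 0.08, 0.11 and -0.49 for the strains in this order, against -0.01, 0.03 and -0.004.

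Heme is the oxygen-binding part of hemoglobin, and Alas2, the first enzyme of its synthesis in red cells, was called in 4 of the 6 comparisons of days. It was 148, 120.5 and 267 CPM in AKR/J on d12, 14.04, 25.2 and 15.8 on d15 and 112, 48.5 and 205 on d17, and it fell in the early phase (-3.86, SE 0.46, adjusted p = 0.00164) and rose in the late phase (2.79, SE 0.48, adjusted p = 0.00552). Alas2 of C57BL/6J rose from d15 to d17 (1.32, SE 0.22, adjusted p = 0.0136), while that of Cav1-null mice rose from d12 to d15 (0.93, SE 0.18, adjusted p = 0.00822). Its d12 libraries were above all d15 libraries in AKR/J and overlapped with them in C57BL/6J. Of the 14 genes of heme synthesis and iron uptake, 9 fell in the AKR/J early phase and 0 rose, against 14.0% and 14.8% of all genes, among them the iron reductase Steap3 (-2.77, SE 0.46, adjusted p = 0.00469) and the mitochondrial iron carrier Slc25a37 (-2.54, SE 0.26, adjusted p = 0.00104), with a median of -1.12 against 0.02 for all genes. In the early phase 4 of 14 fell and 0 rose in C57BL/6J, against 7.80% and 7.08% of all genes, and 2 fell and 1 rose in Cav1-null mice, against 11.8% and 11.6%. From d15 to d17, 3 rose and 2 fell in AKR/J (11.6% and 10.4% of all genes), 1 rose and 0 fell in C57BL/6J (7.46% and 5.58%), and 1 rose and 2 fell in Cav1-null mice (14.5% and 12.8%). The Cav1-null counts were near those of all genes in both phases. The medians of these 5 comparisons lay between -0.25 and 0.06.

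Among 20 regulators known to act on globin genes or on the switch, 3 erythroid factors fell in the AKR/J early phase. Klf1, which drives adult beta-globin, was 5.65, 8.33 and 10.8 CPM there on d12 and 0.505, 0.272 and 0.365 on d15 (-4.92, SE 0.45, adjusted p = 0.000890), and Gata1 (-5.25, SE 0.65, adjusted p = 0.00181) and Nfe2 (-4.73, SE 0.45, adjusted p = 0.000922) fell with it. In this phase 7 of the 20 fell and 2 rose, against 14.0% and 14.8% of all genes. Bcl11a, which represses embryonic globin genes in red cells and is also made by neurons, was 82.5, 99.3 and 46.9 CPM on d12 and 220.3, 161 and 186 on d15 in AKR/J and rose (0.86, SE 0.25, adjusted p = 0.0318). In Cav1-null mice Bcl11a fell in the late phase (-0.33, SE 0.08, adjusted p = 0.00767). Igf2bp3 and Igf2bp1, RNA-binding proteins of fetal cells, fell in both phases of all 3 strains, for example Igf2bp1 in C57BL/6J from d15 to d17 (-1.36, SE 0.11, adjusted p = 0.00350) and Igf2bp3 from 46.2, 45.2 and 41.1 to 23.00, 24.7 and 23.6 CPM there (-1.03, SE 0.11, adjusted p = 0.00498). Lin28b, a fetal regulator of let-7 miRNAs, fell in the AKR/J early phase (-0.66, SE 0.15, adjusted p = 0.0145), and Myb was called in none of the 6 comparisons of days. In C57BL/6J, 2 of 19 fell in the early phase (against 7.80% of all genes) and, without d12 replicate 3, 3 fell and 1 rose (against 7.51% and 8.96%), while 4 of 19 fell in the late phase (against 5.58%). With all libraries none was higher in either phase. In Cav1-null mice, 5 of 19 fell in the early phase with none higher, against 11.8% of all genes that fell, and 7 of 19 fell and 1 rose in the late phase, against 12.8% and 14.5%. In the AKR/J late phase 8 of 19 fell with none higher, against 10.4% of all genes that fell. The medians of the 6 comparisons were -0.21 to -0.46, against -0.04 to 0.03 over all genes. The levels of Bcl11a, far above those of Klf1 in every group, are levels of the whole brain.

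The genes outside the family whose profile was most like that of Hbb-y over the 27 libraries, by Pearson's r of log2(CPM + 1) among 16441 genes with a mean of at least 1 CPM, were Fbxo5 (r = 0.970), Birc5 (0.968), Tal2 (0.964), Sertad3 (0.964) and H2az2 (0.963). Fbxo5 and Birc5 act in cell division. For Hbb-bs they were Marchf2 (0.865), Gm35835 (0.854), Gpr34 (0.848), Chac2 (0.800) and Glrx (0.793). Of the other members, Hbb-bt was the most like Hbb-bs (r = 0.911), followed by Hba-a1 (0.714), whereas Hba-a2, nearly unread in AKR/J, was at -0.371. Hbb-bs and Hbb-y themselves were at -0.220. The points share libraries, strains and days, and r is a description of these 27 libraries.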

How the data were processed

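RNA-seq read counts per gene of 27 whole fetal brain libraries (3 strains, 3 days, 3 libraries each) were used as the authors deposited them, in 1 table of whole-number counts that are not normalized. Per the labels, reads were mapped to GRCm39 with Ensembl release 110, and the submitters' processing notes name FastQC, cutadapt, fastp, STAR, edgeR and bedtools. The counting tool, its strand setting and its handling of reads that map to several genes are not given in the sources used here. A deposited table of splice junction counts served to look for reads that join the globin genes.

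Counts were fitted with edgeR 4.0.16 (R 4.3.3) by glmQLFit and glmQLFTest after filterByExpr and TMM scaling, with 1 fit for each pair of groups (6 libraries) and 1 for each difference of change between strains (12 libraries). P-values were adjusted by the Benjamini-Hochberg method over all genes tested, and the SE is the log2 fold change divided by the square root of F. The method was tested on simulated data. Alternatives were DESeq2 1.42.0, RLE and library size scaling, no filter, a model of all libraries, a replicate block and leaving out each library. Ratios of summed reads were described without a test. Lengths and coordinates came from GENCODE M39, and Python 3.11.15 with pandas 2.3.3, scipy 1.17.1 and matplotlib 3.10.9 made the summaries and plots. Every column was mapped to a sample. All 7 globin genes were named in each comparison. From other lists, the 3 called genes of largest change and a few defining genes were named, while a few further genes were named once their values were known, and the values of some red cell genes are not reported here. The genes and lists were chosen with earlier results of these data known.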

Additional observations from a re-analysis of the deposited data

Results flagged for a closer look

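The change between d15 and d17 differed between Cav1-null and C57BL/6J mice for Hbb-bs, by -3.14 on the log2 scale (edgeR's quasi-likelihood interaction test, adjusted p = 0.0433), and for Hbb-bt, by -2.95 (adjusted p = 0.0433). Both genes rose in C57BL/6J and fell in Cav1-null mice, and they are near-identical copies, so their values are not independent of each other. The d17 library of Cav1-null replicate 2, with 0.0604% of its reads on globins, was the lowest of its group in both genes. Leaving out single libraries gave between 0 and 5 called globin genes, and 0 were called in the model of all 27 libraries.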

How the results depend on the processing

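With 3 libraries a group, many calls lie near the threshold. Over all alternatives, 1293 values of single genes kept their direction and their side of the threshold, 69 passed it in addition, 96 no longer passed it and 26 changed sign. A ratio from spliced reads was not run, because the junction table lists 1 of the 14 introns. DESeq2 gave no adjusted p for Hbb-bh1 in 4 comparisons. Groups with 2 Hbb-bh1 reads limit its folds, and the cause of the changes below was not tested.

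By DESeq2, the globin genes called were 3 in the Cav1-null late phase (5 in edgeR), 7 for AKR/J against C57BL/6J on d17 (4), 4 in the early and 1 in the late difference of change of AKR/J (0 and 0, and over all genes 1330, 1019 and 45 against 150, 15 and 1 in edgeR), 4 for Cav1-null against C57BL/6J on d12 (0), and 2 in the early and 5 in the late difference of change of Cav1-null mice (0 and 2). Over all genes, DESeq2 called 5724 in the Cav1-null late phase (5530 in edgeR) and 2044 for Cav1-null against C57BL/6J on d12 (0). It called 517 in the early and 1436 in the late difference of change of Cav1-null mice (1 and 54). Without the filter they were 7 for AKR/J on d17, 4 in its early difference of change, 2 for Cav1-null mice on d12, and 1 and 5 in their early and late differences of change. The shares of all genes called without the filter are not reported here, so these counts are not a result about the globins. In the model of all 27 libraries they were 2 in the Cav1-null late phase, 4 for AKR/J on d15 (7), 2 in its early difference of change, 3 for Cav1-null mice on d15 (6) and 0 in their late difference of change. Fewer of all genes were called too, 3.56% in place of 27.3% in the Cav1-null late phase and 22.5% in place of 41.1% for AKR/J on d15. For the other comparisons in this model the share over all genes is not reported here.

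The replicate numbers did not pair the libraries, since the correlation of same-numbered libraries was -0.23 to 0.23 and in 0 of 16 comparisons was every pair above 0.1. The comparisons held 108 pairs in all, with some pairs of libraries counted in more than 1 comparison. With the replicate block, 0 globin genes were called in the C57BL/6J early phase (3 without it) and 0 in the late difference of change of Cav1-null mice (2). In the C57BL/6J early phase the block left 0 of 19154 genes called, so that count is not particular to the globins. The share over all genes in the late difference is not reported here. Hbb-bh1 changed sign to 1.27 for Cav1-null mice on d12 and to -0.0674 in their early difference of change.

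Leaving out single libraries gave 0 to 3 called globin genes in the C57BL/6J early phase, 4 to 7 in its late phase, 1 to 7 for AKR/J against C57BL/6J on d12, 1 to 7 on d17, 0 to 5 in the early difference of change of AKR/J, 0 to 5 for Cav1-null mice on d12, and 0 to 1 and 0 to 5 in their early and late differences of change. Genes that were not called with all libraries and changed sign ranged from -0.33 to 0.28 (Hba-a2, C57BL/6J early phase), -0.0751 to 0.119 (Hba-a1, Cav1-null early phase), -1.98 to 2.75 and -1.16 to 0.72 (Hbb-bh1 and Hba-x, Cav1-null mice on d12), -0.25 to 0.38 (Hbb-bh1, d15), -2.68 to 2.03 and -1.50 to 0.35 (Hbb-bh1 and Hba-x, early difference of change) and -2.67 to 2.62 (Hbb-bh1, late difference of change). Hbb-bh1 in that last comparison was at -0.05, against 0.0206 by DESeq2, 0.00886 with RLE scaling, 0.0349 without the filter and 0.0263 in the model of all libraries, and Hba-x in the early one at -0.07, against 0.0674 with library sizes alone.

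Hbb-y over Hbb-bs alone had a log2 ratio of 5.21 in AKR/J d12, -2.06 in C57BL/6J d15, 2.95 in Cav1-null d12 and -5.49 in Cav1-null d15, and Hba-x over Hba-a1 alone of -4.12 in C57BL/6J d15, -1.51 in Cav1-null d12 and -6.09 in Cav1-null d15. Per length, the beta ratio of AKR/J d12 was 5.03 and the alpha ratio of Cav1-null d12 was -2.37. The other mean ratios moved by less than 1 SD under every alternative run.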
